A study of Arabidopsis thaliana with 18 samples.

Results

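The cysteine-rich receptor-like kinases (CRKs) of Arabidopsis were followed in leaves in which the intracellular immune receptor RPS4 was switched on by a drop in temperature. The 42 CRK loci were taken by their locus identifiers, including the tandem array from AT4G23130 to AT4G23320, out of 32678 genes in the count table. All 42 were found, and 39 of them passed the filter on low counts and were tested. CRK1 (AT1G19090) had 0 counts in all 18 libraries, CRK25 (AT4G05200) had 4 counts in all and CRK33 (AT4G11490) had 5 counts, all in 1 library, so that these 3 were not tested.

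RNA was sequenced from leaves of 35S:RPS4-HS plants (35S:RPS4) and of the wild-type accession Col-0, with 3 libraries in each of 6 groups. The groups were 35S:RPS4 at 0 h, 4 h and 8 h and Col-0 at 0 h, 4 h and 8 h. Plants of both lines grew for 3.5 weeks at 28 °C, the temperature of the 0 h samples, and were then moved to 19 °C for 4 h or 8 h with no pathogen added. In 35S:RPS4 the viral 35S promoter drives RPS4 in nearly all tissues and at all times, so the receptor gene is also highly expressed at 28 °C, where the protein is held inactive. Hours at 19 °C and time of day run together in this design. Whether replicate libraries stem from different plants is not given in the sources used here, and p-values then cover only the spread between the libraries at hand, which may be technical.

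CRKs are membrane kinases with an extracellular part built of DUF26 domains, each holding a C-8-C-2-C arrangement of cysteines, then a membrane-spanning stretch and a cytoplasmic Ser/Thr kinase. Many are transcribed in response to pathogens, salicylic acid (SA) and reactive oxygen species, and over-expression of several members causes cell death or raises resistance to bacteria. Most lie in tandem clusters, which arose through repeated local duplication.

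The libraries held between 23876651 and 36291942 counts in genes, and levels are given as CPM (counts per 1000000 counts in genes) after scaling by the trimmed mean of M-values (TMM). At these depths 3 counts correspond to between 0.0827 and 0.126 CPM, and values at or under that level are at the edge of detection. RPS4 itself stood at 995, 955 and 772 CPM in 35S:RPS4 at 0 h, against 12.7, 13.2 and 12.2 CPM in Col-0, as the labels say. Its level in 35S:RPS4 was not constant, with means of 2181 CPM at 4 h and 721 CPM at 8 h, against 14.6 and 16.7 CPM in Col-0. The log2 fold change of RPS4 over Col-0 was 7.22 at 4 h and 5.43 at 8 h, and the difference between them (-1.79) passed the test. The part of this change in the CRK values was not tested. Summed CPM of 3 mesophyll markers lay between 2795 and 3099 in 35S:RPS4 at 8 h, against 11532 to 16777 in Col-0 at 8 h. The 4 epidermis markers summed to 48.9 to 53.0 CPM in 35S:RPS4 at 8 h and 106.1 to 137.1 CPM in Col-0 at 8 h. The 2 vasculature markers summed to 46.9 to 100.7 CPM in 35S:RPS4 and 134.8 to 177 CPM in Col-0 at 8 h. In edgeR's quasi-likelihood test at 8 h, 3 of 3 mesophyll and 3 of 4 epidermis markers were lower in 35S:RPS4, beside 30.1% of all genes. FAMA (-0.38 ± 0.22 on the log2 scale) and both vasculature markers did not pass (SUC2 -0.88 ± 0.25, IRX3 -1.71 ± 0.73). At 4 h the epidermis sums were already apart, at 59.6 to 81.2 CPM in 35S:RPS4 and 95.1 to 108 CPM in Col-0. Of the 4 epidermis markers only ATML1 was lower in 35S:RPS4 at 4 h (-1.70 ± 0.19 on the log2 scale, adjusted p = 1.19e-06 by edgeR's quasi-likelihood test). MYB60 (0.06 ± 0.23), FAMA (0.29 ± 0.22) and GL2 (0.26 ± 0.25) did not pass that test at 4 h, and their libraries overlapped between the lines. The 4 h mesophyll sums overlapped, at 9131 to 12331 CPM in 35S:RPS4 and 11719 to 12896 CPM in Col-0, as did the vasculature sums, at 132.8 to 154 CPM in 35S:RPS4 and 98.5 to 173 CPM in Col-0. Fewer cells of a type, less RNA per cell and lower levels of the marker transcripts alone cannot be told apart in such bulk samples. The part of these marker differences in the CRK values was not tested.

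On the reference assembly TAIR10.1, 37 of the 42 genes lie on chromosome 4. The array of 20 genes from CRK5 to CRK24 spans chr4:12117491-12191704. With a gap of at most 25000 bases between neighbours, 33 members fell into 5 clusters and 9 stood alone. Of the 41 members whose coding frame could be read, 37 had 2 DUF26 motifs, CRK23 had 3, CRK24 and CRK27 had 1, and CRK45 had none in a predicted protein of 352 residues. CRK9, at 265 residues, is the shortest and holds neither of the kinase motifs HRD and DFG.

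The 300 bases before the annotated start were read for 2 short elements on both strands: TTGAC, the core of the W-box bound by WRKY transcription factors, and CGCG. CGCG is a form of the CGyG core (y being C or T) that the study gives for calmodulin-binding transcription activators (CAMTAs). The other form, CGTG, was not searched for, so the CGCG counts do not cover the whole core. TTGAC was present before 31 of 42 CRK genes (73.8%), against 50.4% of 26711 promoters of the same length. At least 2 copies were present in 19 CRK promoters, against 17.9% of all promoters. CGCG was present in 4 CRK promoters (9.52%), against 11.8% of all. The windows of CRK15, CRK16, CRK24, CRK25, CRK26, CRK28, CRK29, CRK34 and CRK40 overlap another annotated gene. Windows of this kind were kept among the members and among all promoters. A match is a description of letters and not a binding site, and neighbouring duplicates share sequence. The promoters of CRK39, CRK36, CRK13 and CRK42 are shown because they stand before the members with some of the largest rises and the largest 4 h fall. They cover chr4:2259198-2259497 (plus strand) for CRK39, chr4:2234690-2234989 (minus strand) for CRK36, chr4:12151639-12151938 (minus strand) for CRK13 and chr5:16151222-16151521 (plus strand) for CRK42, and run 5′ to 3′ towards the gene, with TTGAC or CGCG on either strand in capitals (GTCAA is TTGAC on the other strand).
CRK39: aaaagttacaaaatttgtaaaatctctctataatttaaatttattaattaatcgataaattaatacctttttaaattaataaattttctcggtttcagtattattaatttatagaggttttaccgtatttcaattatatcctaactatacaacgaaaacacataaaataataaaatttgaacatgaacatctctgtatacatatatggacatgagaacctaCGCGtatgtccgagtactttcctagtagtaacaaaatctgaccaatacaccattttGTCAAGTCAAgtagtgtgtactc
CRK36: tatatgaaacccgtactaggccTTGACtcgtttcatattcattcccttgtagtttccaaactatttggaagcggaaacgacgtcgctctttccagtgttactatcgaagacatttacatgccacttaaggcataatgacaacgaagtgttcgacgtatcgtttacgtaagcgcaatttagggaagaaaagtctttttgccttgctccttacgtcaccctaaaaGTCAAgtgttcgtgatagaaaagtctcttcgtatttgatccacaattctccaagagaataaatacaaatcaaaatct
CRK13: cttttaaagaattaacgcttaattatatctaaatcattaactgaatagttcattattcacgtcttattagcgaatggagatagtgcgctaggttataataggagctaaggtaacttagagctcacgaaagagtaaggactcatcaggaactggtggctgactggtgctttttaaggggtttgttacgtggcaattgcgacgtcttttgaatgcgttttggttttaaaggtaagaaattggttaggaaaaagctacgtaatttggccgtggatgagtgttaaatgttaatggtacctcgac
CRK42: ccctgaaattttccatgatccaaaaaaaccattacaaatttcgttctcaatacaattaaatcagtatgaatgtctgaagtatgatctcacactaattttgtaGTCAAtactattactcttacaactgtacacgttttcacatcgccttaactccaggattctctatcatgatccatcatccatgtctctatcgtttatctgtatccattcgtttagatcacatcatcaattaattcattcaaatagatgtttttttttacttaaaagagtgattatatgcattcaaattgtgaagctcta
The CRK39 promoter holds 2 TTGAC matches, 23 and 18 bases before the start, and 1 CGCG match, which is part of ACGCGT. That longer element was found before no other CRK gene and in 1.94% of all promoters. CRK36 has 2 TTGAC matches, 278 and 77 bases before its start, CRK42 has 1 at 198 bases, and CRK13 has neither TTGAC nor CGCG.

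At 28 °C no CRK gene passed the test for a difference between the lines. The threshold throughout was an adjusted p under 0.01 with more than a 2-fold change (edgeR's quasi-likelihood test, adjusted by Benjamini-Hochberg over 20023 genes). At 0 h, 0 of 39 members were higher and 0 lower in 35S:RPS4, beside 0.00999% higher and 0% lower of all genes. The smallest adjusted p of a member was 0.253, 3 members had an unadjusted p under 0.05, and DESeq2 and limma voom also called 0. The median log2 fold change of the members was -0.23. CRK5, CRK10 and CRK14 were the 3 with a small unadjusted p, and Col-0 replicate 2 was the highest Col-0 library for each of them. CRK5 stood at 3.71, 2.97 and 2.02 CPM in 35S:RPS4 and at 3.23, 22.3 and 5.58 CPM in Col-0 at 0 h. That library had the highest value of its group for 21 of the 39 members, and without it the members' median log2 fold change was 0.07. In 35S:RPS4 at 0 h, replicate 3 had the lowest value of its group for 28 of the 39 members, and without that library the median was -0.06.

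After the shift most of the family was higher in 35S:RPS4 than in Col-0. At 4 h, 31 of 39 members were higher and 3 lower than in Col-0, beside 16.6% higher and 12.4% lower of all genes. The members' median log2 fold change was 4.60, against a median of -0.005 over all genes. At 8 h, 29 members were higher and 5 lower, beside 26.6% and 30.1% of all genes, with a median of 4.06 for the members and -0.10 for all genes. Both medians were the same with the members at 0 counts in Col-0 set to their lower bounds. At 4 h every 35S:RPS4 library lay above every Col-0 library for 32 of 39 members and below for 4, beside 31.9% and 31.4% of all genes. At 8 h the counts were 31 above and 6 below, beside 38.7% and 42.2% of all genes. Without Col-0 4 h replicate 3 the 4 h count of lower members was 1. With libraries scaled by their totals alone, 29 members were higher and 4 lower at 4 h, beside 2659 genes higher and 4237 lower in all (3315 and 2490 with TMM), and the median was 4.17 for the members and -0.43 for all genes.

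The summed level of the family moved accordingly. The 42 genes together gave 456 ± 86.0, 4931 ± 846 and 6931 ± 303 CPM in 35S:RPS4 at 0 h, 4 h and 8 h, against 455 ± 44.8, 521 ± 49.0 and 442 ± 44.5 CPM in Col-0 (SD, n = 3). The leading members also changed. Per kilobase of exon, CRK45 (868), CRK13 (659) and CRK36 (377) had the highest CPM in 35S:RPS4 at 8 h, whereas CRK21 led in Col-0 at 0 h, 4 h and 8 h (41.6, 68.9 and 46.1 CPM per kilobase). CRK21 was also first in 35S:RPS4 at 0 h, at 47.4 CPM per kilobase.

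**Figure D1:**
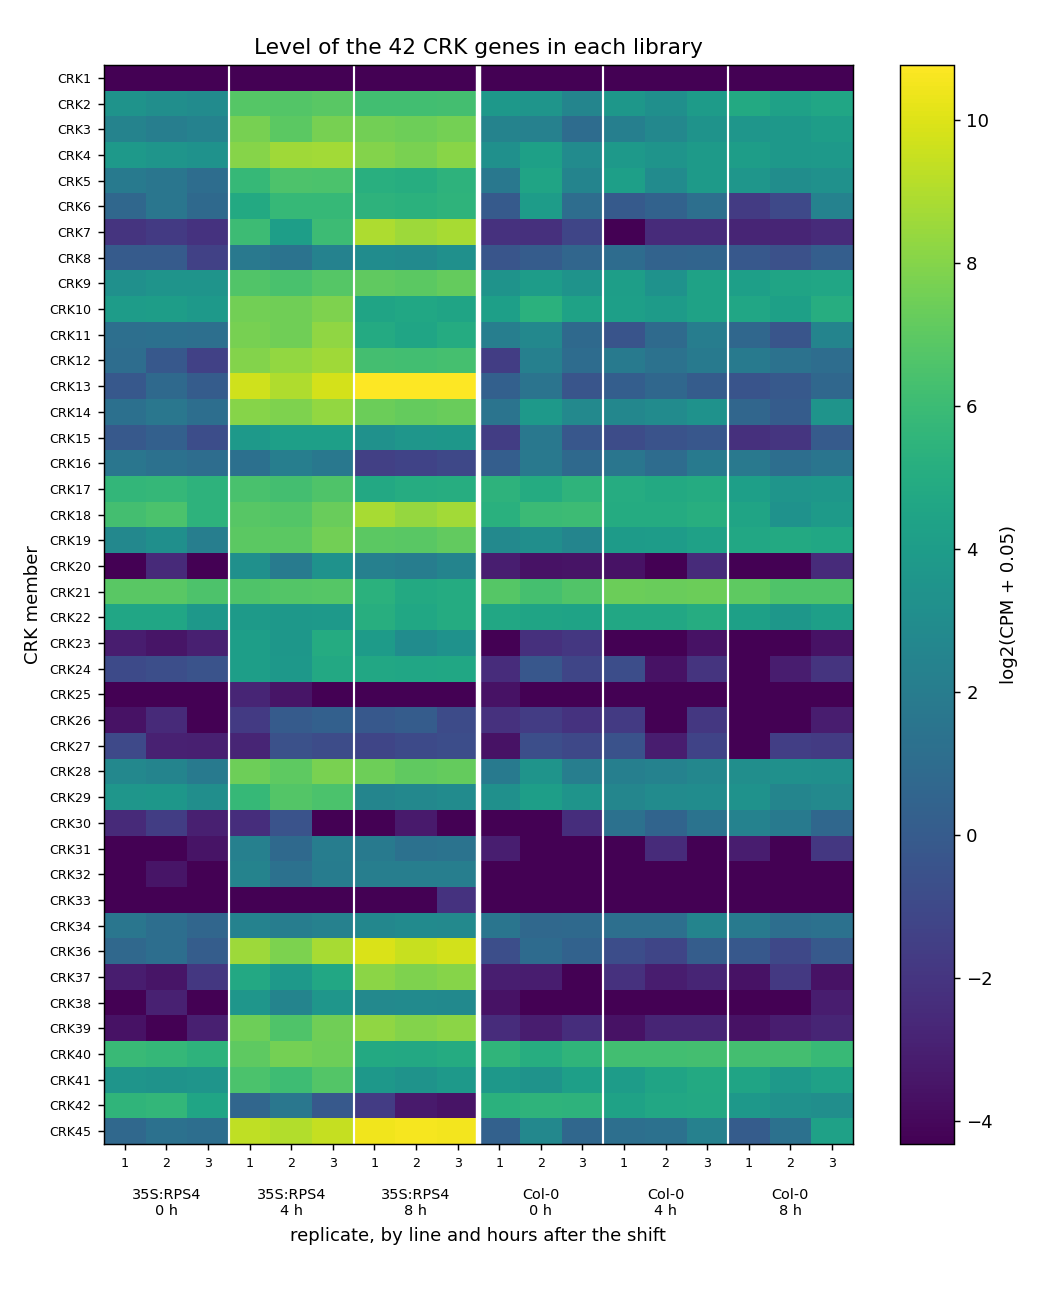
Heat map of the level of each of the 42 CRK genes (rows) in each of the 18 libraries (columns, replicate numbers under each group), as log2(CPM + 0.05), with 35S:RPS4 on the left and Col-0 on the right of the thick line. Most rows are bright in 35S:RPS4 at 4 h and 8 h only, CRK21 and CRK40 are bright in nearly all libraries, and CRK42 darkens in 35S:RPS4 after the shift.

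The highest levels were reached by members with described roles in immunity and stress. CRK13 (AT4G23210), whose over-expression causes cell death and SA-dependent resistance, stood at 836, 501 and 898 CPM in 35S:RPS4 at 4 h, against 1.11, 1.61 and 1.004 CPM in Col-0. Its 8 h values were 1692, 1742 and 1751 CPM in 35S:RPS4 and 0.712, 0.888 and 1.59 CPM in Col-0. Every 35S:RPS4 library lay far above every Col-0 library, with log2 fold changes of 9.22 ± 0.48 (SE, back-calculated from the test statistic) and 10.66 ± 0.51 and adjusted p of 1.01e-10 and 1.29e-11. CRK13 has unique sequence in 84.6% of its 50-base exon windows, so part of its reads could match a relative.

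CRK36 (AT4G04490), which binds CRK45 and phosphorylates the cytoplasmic kinase BIK1, had 375, 223 and 442 CPM in 35S:RPS4 at 4 h, against 0.554, 0.395 and 1.04 CPM in Col-0. At 8 h the values were 960, 732 and 873 CPM in 35S:RPS4, against 0.842, 0.427 and 0.878 CPM in Col-0. Its log2 fold change was 9.02 ± 0.48 at 4 h and 10.21 ± 0.49 at 8 h (adjusted p of 1.09e-10, then 1.42e-11), with the groups far apart at both times. Its partner CRK45 (AT4G11890, also ARCK1), a cytosolic kinase that restrains abscisic acid and osmotic stress responses, reached 644, 534 and 708 CPM in 35S:RPS4 at 4 h, against 2.22, 2.40 and 4.86 CPM in Col-0. At 8 h CRK45 stood at 1421, 1523 and 1436 CPM in 35S:RPS4, against 1.003, 2.43 and 19.8 CPM in Col-0, where replicate 3 was well above the others. The line effect was 7.63 ± 0.94 at 4 h and 7.56 ± 0.93 at 8 h on the log2 scale (adjusted p = 3.11e-06 and 1.09e-06). DESeq2 gave no adjusted p for CRK45 or for CRK6.

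CRK7 (AT4G23150), for which a part in protection against extracellular reactive oxygen species has been described, was close to the floor in Col-0. It stood at 64.5, 17.4 and 64.5 CPM in 35S:RPS4 at 4 h, against 0, 0.132 and 0.130 CPM in Col-0, and at 487, 371 and 438 CPM in 35S:RPS4 at 8 h, against 0.0971, 0.0986 and 0.130 CPM in Col-0. The log2 fold change was 9.03 ± 0.59 at 4 h and 11.90 ± 0.60 at 8 h, with adjusted p of 1.34e-09 and 2.25e-11. In 35S:RPS4 at 4 h, replicate 2 lay well under the other libraries. That replicate had the lowest value of its group for 23 of the 31 members that rose at 4 h, and without it the count of members called higher was 31.

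CRK6 (AT4G23140), with a described role like that of CRK7, also rose, to 29.1, 55.2 and 55.7 CPM in 35S:RPS4 at 4 h, against 0.935, 1.28 and 2.27 CPM in Col-0. By 8 h CRK6 had 42.8, 39.2 and 45.4 CPM in 35S:RPS4 and 0.259, 0.460 and 5.04 CPM in Col-0. Both differences passed the test (4.96 ± 0.97 and 4.46 ± 0.94). Only 78.1% of its exon windows are unique, the lowest share among the members, so reads of CRK6 and CRK8 may be hard to assign.

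A cluster on the short arm of chromosome 4 held further large rises. CRK36, CRK37, CRK38 and CRK39 are neighbours, and all 4 were higher in 35S:RPS4 at both times, with a median log2 fold change of 9.93 at 4 h and 10.76 at 8 h. CRK39 (AT4G04540) stood at 177, 97.0 and 179 CPM in 35S:RPS4 at 4 h, against 0.0346, 0.0987 and 0.0972 CPM in Col-0. The 8 h values were 310, 250 and 281 CPM in 35S:RPS4, against 0.0324, 0.0658 and 0.0976 CPM in Col-0. All Col-0 values are at the level of 3 counts or under, with 7 counts in all at 4 h and 6 at 8 h. The log2 fold changes were 10.85 ± 0.37 and 11.97 ± 0.38 (adjusted p = 9.84e-13 and 3.3e-13 by edgeR's quasi-likelihood test). On so few counts these SEs can be smaller than counting error alone. The 8 h value was the largest fitted one of the family, with that of CRK7 at 11.90, and the order of the 2 was not tested.

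CRK37 (AT4G04500) stood at 27.1, 13.7 and 26.9 CPM in 35S:RPS4 at 4 h, against 0.173, 0.0658 and 0.0972 CPM in Col-0. Its 8 h values were 287, 230 and 258 CPM in 35S:RPS4, against 0.0324, 0.230 and 0.0325 CPM in Col-0. Its log2 fold change was 7.61 ± 0.45 at 4 h and 11.30 ± 0.47 at 8 h, on 10 and 9 counts in Col-0. CRK38 (AT4G04510) had 12.3, 5.55 and 12.1 CPM in 35S:RPS4 at 4 h and 0 counts in the Col-0 libraries, which makes it at least 293.5-fold higher against a floor of 3 counts over the group. At 8 h CRK38 had 6.85, 7.30 and 7.13 CPM in 35S:RPS4, against 2 counts in all in Col-0 (ratio 328, exact 95% interval 90.4 to 2714, counting error only).

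Members at very low levels in Col-0 also include CRK32 and CRK23. CRK32 (AT4G11480) had 0 counts in every Col-0 library and stood at 5.40, 2.39 and 3.92 CPM in 35S:RPS4 at 4 h and 4.26, 4.40 and 4.40 CPM at 8 h. It was at least 113.6-fold higher at 4 h and at least 133.8-fold higher at 8 h. CRK23 (AT4G23310) had 17.3, 12.8 and 30.9 CPM in 35S:RPS4 at 4 h and 15.3, 8.03 and 10.2 CPM at 8 h, against a single count in Col-0 at each time. The ratios were 1843 (interval 330.2 to 72839) at 4 h and 979.2 (interval 175.3 to 38717) at 8 h, so their size is known only roughly. CRK24 (AT4G23320) stood at 17.5, 13.3 and 28.2 CPM at 4 h and 27.0, 24.7 and 25.6 CPM at 8 h in 35S:RPS4, against 0.554, 0.0329 and 0.194 CPM at 4 h and 0, 0.0658 and 0.195 CPM at 8 h in Col-0. Its log2 fold change was 6.23 ± 0.60 at 4 h and 8.14 ± 0.69 at 8 h.

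Members whose over-expression triggers cell death, CRK4, CRK5, CRK19 and CRK20, were all higher in 35S:RPS4 at both times. CRK4 (AT3G45860) stood at 261, 398 and 418 CPM in 35S:RPS4 at 4 h and at 13.7, 11.02 and 14.9 CPM in Col-0. The values at 8 h were 255, 210.1 and 270 CPM in 35S:RPS4 and 16.99, 13.05 and 13.6 CPM in Col-0. The groups were widely apart, with log2 fold changes of 4.77 ± 0.30 and 4.07 ± 0.29. CRK5 (AT4G23130) had 54.5, 93.5 and 89.3 CPM in 35S:RPS4 at 4 h, against 18.04, 7.64 and 14.7 CPM in Col-0, and 36.8, 34.5 and 42.9 CPM in 35S:RPS4 at 8 h, against 12.1, 8.29 and 9.82 CPM in Col-0. Its rise of 1.92 ± 0.50 at 8 h was no longer called without Col-0 8 h replicate 2 (adjusted p = 0.012), while the 4 h rise was 2.55 ± 0.51. CRK19 (AT4G23270) had 123.1, 127 and 185 CPM at 4 h and 126, 121 and 141 CPM at 8 h in 35S:RPS4, against 15.4, 16.4 and 20.1 CPM at 4 h and 26.0, 29.2 and 25.4 CPM at 8 h in Col-0 (log2 fold changes 3.07 ± 0.23 and 2.27 ± 0.23). CRK20 (AT4G23280), the closest relative of CRK19, stood at 9.45, 3.83 and 10.2 CPM at 4 h and 4.66, 4.17 and 5.60 CPM at 8 h in 35S:RPS4, against at most 0.130 CPM in Col-0 at either time (log2 fold changes 7.03 ± 0.81 and 6.65 ± 0.83).

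Members linked to the oxidative burst and to pattern receptors rose too. CRK2 (AT1G70520), which phosphorylates the NADPH oxidase RBOHD, stood at 111, 106 and 121 CPM in 35S:RPS4 at 4 h, against 12.7, 9.28 and 15.4 CPM in Col-0. At 8 h it had 72.8, 75.0 and 77.0 CPM in 35S:RPS4 and 28.4, 19.99 and 23.97 CPM in Col-0. The log2 fold change of CRK2 was 3.17 ± 0.25 at 4 h and 1.64 ± 0.23 at 8 h, and the difference between these effects passed the test (-1.53 ± 0.33, adjusted p = 0.000794). CRK28 (AT4G21400), which associates with BAK1 and FLS2, stood at 176, 133 and 213 CPM in 35S:RPS4 at 4 h, against 4.47, 5.04 and 6.25 CPM in Col-0. At 8 h CRK28 had 173, 139 and 146 CPM in 35S:RPS4 and 8.84, 9.34 and 9.24 CPM in Col-0. It was higher at both times, by 5.05 ± 0.37 and 4.06 ± 0.35 on the log2 scale.

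Further members of the array were higher in 35S:RPS4 than in Col-0 at both times. CRK12 (AT4G23200) had 253, 322 and 388 CPM in 35S:RPS4 at 4 h, against 3.64, 2.53 and 3.73 CPM in Col-0, and 76.9, 75.1 and 78.8 CPM in 35S:RPS4 at 8 h, against 3.63, 2.53 and 2.08 CPM in Col-0. CRK14 (AT4G23220) had 260.2, 233 and 318 CPM in 35S:RPS4 at 4 h, against at most 10.5 CPM in Col-0, and its 8 h values were 167, 149.8 and 157 CPM in 35S:RPS4, against at most 11.3 CPM in Col-0. In both genes each 35S:RPS4 library lay above each Col-0 library at either time. The log2 fold changes were 6.60 ± 0.63 and 4.81 ± 0.59 for CRK12 and 5.05 ± 0.70 and 5.10 ± 0.70 for CRK14. CRK15 (AT4G23230) reached at most 18.1 CPM in 35S:RPS4 and rose by 4.61 ± 0.66 at 4 h and 4.70 ± 0.68 at 8 h. CRK9 (AT4G23170) had 101, 88.5 and 113 CPM in 35S:RPS4 at 4 h, against 17.8, 10.4 and 20.5 CPM in Col-0, and its 8 h values were 134, 123.4 and 149 CPM in 35S:RPS4, against 18.6, 22.3 and 24.2 CPM in Col-0. Its line effect was 2.63 ± 0.22 at 4 h and 2.64 ± 0.22 at 8 h, a difference of 0.01 ± 0.30 (SE). CRK17 (AT4G23250), whose exons overlap those of CRK16, had 85.4, 77.8 and 98.9 CPM in 35S:RPS4 at 4 h, against 33.2, 28.5 and 31.5 CPM in Col-0 (1.49 ± 0.17). At 8 h it had 28.1, 33.2 and 34.4 CPM in 35S:RPS4, against 18.3, 11.9 and 12.9 CPM in Col-0 (1.15 ± 0.17). Both lines were then under their own 0 h levels, which were 50.9, 52.5 and 43.5 CPM for 35S:RPS4, against 43.9, 31.1 and 44.7 CPM for Col-0. The decrease in Col-0 at 8 h against 0 h passed the test (-1.47 ± 0.17), and the interaction at 8 h did not pass on size (0.85 ± 0.24). With library totals alone the 8 h line effect of CRK17 was 0.91, under the fold threshold. Outside the array CRK3 (AT1G70530), the neighbour of CRK2, had 208, 124 and 206 CPM in 35S:RPS4 at 4 h, against 4.47, 6.65 and 10.9 CPM in Col-0, and 8 h values of 186, 175 and 198 CPM in 35S:RPS4, against 11.9, 13.2 and 17.2 CPM in Col-0 (log2 fold changes 4.60 ± 0.36 and 3.72 ± 0.34).

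**Figure D2:**
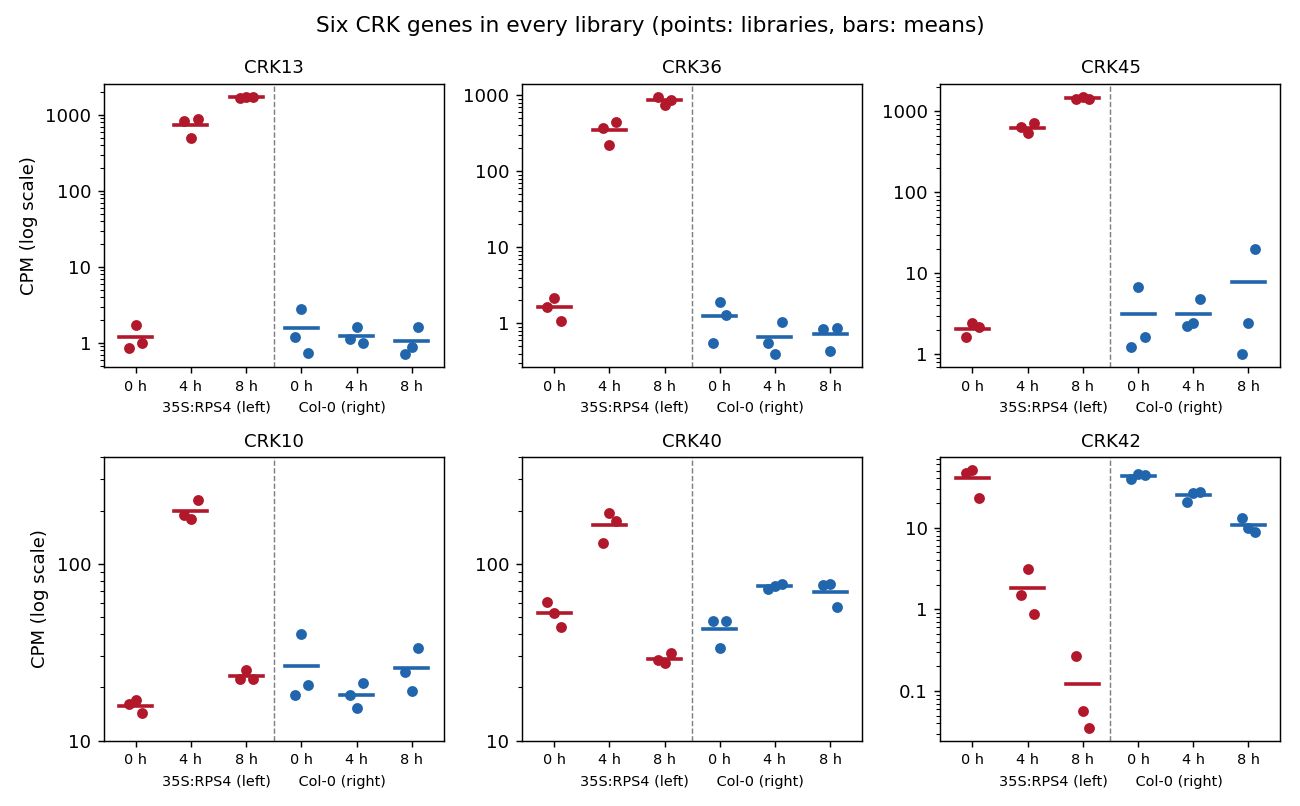
CPM on a log axis of 6 CRK genes in every library, with 35S:RPS4 (red) to the left and Col-0 (blue) to the right of the dashed line, each at 0 h, 4 h and 8 h; points are libraries and bars are group means. CRK13, CRK36 and CRK45 stayed high in 35S:RPS4 at 8 h, CRK10 and CRK40 were above Col-0 at 4 h and not at 8 h, and CRK42 was lower at both times.

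Time courses differed among the members. Of the 39 tested members, 27 were higher at both times, 2 (CRK26 and CRK34) only passed as higher at 8 h, and 3 (CRK10, CRK29 and CRK41) only at 4 h. The 8 h rise of CRK26 rests on 68 counts in 35S:RPS4 and 2 in Col-0 (ratio 36.4, interval 9.69 to 306.5), and that of CRK34 (1.34 ± 0.35) was lost on leaving out replicate 2 or 3 of Col-0 at 8 h (highest adjusted p 0.0148). CRK40 was higher at 4 h and lower at 8 h, CRK30 and CRK42 were lower at both times, CRK16 and CRK21 passed as lower at 8 h, CRK22 passed as lower at 4 h, and CRK27 passed at neither. The difference between the line effects at 8 h and at 4 h was tested directly. It was positive and past the threshold for 4 members (beside 13.3% of all genes) and negative for 9 (beside 22.9% of all genes), with 26 not called. Without Col-0 4 h replicate 1 the positive calls were 2.

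The 4 members whose line effect was larger at 8 h were CRK37 (difference 3.69 ± 0.99), CRK18 (2.69 ± 0.41), CRK8 (1.99 ± 0.52) and CRK22 (1.91 ± 0.30). CRK18 (AT4G23260) was already at 77.95, 89.96 and 43.25 CPM in 35S:RPS4 at 0 h, against 38.96, 63.3 and 64.6 CPM in Col-0. It stood at 115, 106 and 161 CPM in 35S:RPS4 at 4 h and at 452, 340 and 404 CPM at 8 h, while in Col-0 it stood at 31.5, 31.2 and 34.9 CPM at 4 h and at 22.2, 10.2 and 14.8 CPM at 8 h. The fall in Col-0 at 8 h against 0 h passed the test by itself (-1.82 ± 0.29). The difference of CRK37 lost the call without replicate 1 or 3 of Col-0 at either 4 h or 8 h (highest adjusted p 0.0411). That of CRK8 lost it without 35S:RPS4 4 h replicate 2, 35S:RPS4 8 h replicate 3, replicate 1 of Col-0 at 4 h or replicate 2 of Col-0 at 8 h (highest adjusted p 0.0125).

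CRK10 and CRK29 showed the clearest transient rises. CRK10 (AT4G23180), of which a gain-of-function allele dwarfs the plant, stood at 189, 180.3 and 231 CPM in 35S:RPS4 at 4 h, against 18.1, 15.3 and 21.1 CPM in Col-0. At 8 h the values were 22.4, 25.1 and 22.3 CPM in 35S:RPS4 and 24.5, 19.0 and 33.4 CPM in Col-0, and the groups overlapped. The line effect was 3.46 ± 0.27 at 4 h and -0.14 ± 0.25 at 8 h (adjusted p = 0.619), and the difference was -3.60 ± 0.36 (adjusted p = 4.31e-07). CRK29 (AT4G21410) had 54.9, 104 and 89.1 CPM in 35S:RPS4 at 4 h, against 5.95, 7.64 and 8.13 CPM in Col-0, and 5.91, 6.48 and 7.69 CPM in 35S:RPS4 at 8 h, against 10.3, 5.85 and 6.96 CPM in Col-0. Its line effect was 3.51 ± 0.30 at 4 h and -0.20 ± 0.28 at 8 h (adjusted p = 0.52), a difference of -3.72 ± 0.40 (adjusted p = 9.87e-07). CRK29 lies next to CRK28 and their annotated exons overlap over 470 bases on the same strand, so reads from that stretch would be set aside as ambiguous or counted for either gene.

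CRK11 (AT4G23190), described as induced by Ralstonia, had 208, 183 and 307 CPM in 35S:RPS4 at 4 h, against 0.692, 1.81 and 4.24 CPM in Col-0. At 8 h it had 29.3, 23.4 and 31.7 CPM in 35S:RPS4 and 1.59, 0.723 and 5.497 CPM in Col-0. It was higher at both times, by 6.68 ± 0.68 and 3.43 ± 0.61 on the log2 scale, with a difference of -3.25 ± 0.83 (adjusted p = 0.00311) that was not called without Col-0 4 h replicate 2 or without Col-0 8 h replicate 3 (adjusted p up to 0.0298). CRK41 (AT4G00970) stood at 91.0, 67.2 and 108 CPM in 35S:RPS4 at 4 h, against 16.2, 22.8 and 29.3 CPM in Col-0, and at 13.2, 10.6 and 13.8 CPM in 35S:RPS4 at 8 h, against 22.3, 14.0 and 19.9 CPM in Col-0. It passed as higher at 4 h (1.96 ± 0.24) and not at 8 h (-0.58 ± 0.24).

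The falls were fewer. CRK42 (AT5G40380), 1 of the 5 members away from chromosome 4, had 1.5, 3.13 and 0.889 CPM in 35S:RPS4 at 4 h, against 20.4, 26.5 and 27.7 CPM in Col-0. At 8 h it had 0.269, 0.0564 and 0.0355 CPM in 35S:RPS4, against 13.3, 9.83 and 8.85 CPM in Col-0. At 0 h the lines overlapped, at 46.9, 50.4 and 23.0 CPM in 35S:RPS4 and 39.8, 45.2 and 44.1 CPM in Col-0. The log2 fold change was -3.74 ± 0.39 at 4 h and -6.59 ± 0.56 at 8 h (adjusted p = 5.01e-07 and 1.14e-08), and CRK42 also fell in Col-0 at 8 h against 0 h (-2.01 ± 0.34). Its exons overlap an antisense gene over 130 bases.

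CRK30 (AT4G11460) was near the floor in both lines at 0 h and rose in Col-0 after the shift. It stood at 0.150, 0.665 and 0 CPM in 35S:RPS4 at 4 h, against 2.39, 1.42 and 2.59 CPM in Col-0, and at 0, 0.0564 and 0 CPM in 35S:RPS4 at 8 h, against 5.08, 3.75 and 1.59 CPM in Col-0. The 8 h difference rests on 2 counts in 35S:RPS4 and 320 in Col-0 (ratio 0.00669, interval 0.000807 to 0.0244). At 4 h the log2 fold change was -2.92 ± 0.85, a call that held only without 35S:RPS4 4 h replicate 2 when each of the 6 libraries was left out in turn (adjusted p up to 0.0349). In Col-0 the gene was higher than at 0 h by 5.38 ± 1.06 at 4 h and 6.08 ± 1.06 at 8 h, from a 0 h level of 0, 0 and 0.147 CPM.

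CRK40 (AT4G04570) was second to CRK21 in CPM per kilobase in Col-0 at 4 h (24.2) and 8 h (22.5). It stood at 131, 194 and 175 CPM in 35S:RPS4 at 4 h, against 72.3, 75.1 and 77.1 CPM in Col-0, and at 28.7, 27.5 and 31.2 CPM in 35S:RPS4 at 8 h, against 75.6, 76.5 and 56.7 CPM in Col-0. The libraries of the lines did not overlap at either time, above at 4 h (1.16 ± 0.17) and below at 8 h (-1.26 ± 0.17). The difference between these effects was -2.41 ± 0.25 (adjusted p = 5.66e-07). With libraries scaled by their totals alone, the 4 h value was 0.73 and under the fold threshold.

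CRK21 (AT4G23290) had 98.3, 105 and 111 CPM in 35S:RPS4 at 4 h, against 164, 158 and 169 CPM in Col-0, a log2 fold change of -0.64 ± 0.15 that passed on adjusted p (0.00221) but not on size. At 8 h it fell to 39.2, 29.1 and 30.7 CPM in 35S:RPS4, against 130.3, 100.1 and 98.4 CPM in Col-0 (-1.73 ± 0.16). CRK16 (AT4G23240) had 0.314, 0.366 and 0.426 CPM in 35S:RPS4 at 8 h, against 3.33, 2.10 and 2.90 CPM in Col-0, and the line effect was -2.89 ± 0.42. At 4 h CRK16 overlapped between the lines, at 2.30, 4.30 and 3.19 CPM in 35S:RPS4 and 2.94, 2.01 and 3.60 CPM in Col-0, with a line effect of 0.20 ± 0.36. CRK16 and CRK17 share 776 bases of exon on the same strand, so their counts are uncertain. CRK22 (AT4G23300) had 14.8, 13.1 and 14.0 CPM in 35S:RPS4 at 4 h, against 26.1, 26.9 and 32.4 CPM in Col-0 (-1.03 ± 0.21), and 35.2, 25.9 and 31.1 CPM in 35S:RPS4 at 8 h, against 19.2, 12.9 and 18.02 CPM in Col-0 (0.88 ± 0.21, under the fold threshold). The 4 h call of CRK22 sat at the fold threshold and was lost without 35S:RPS4 4 h replicate 2 or Col-0 4 h replicate 3. Only 83.85% of the 50-base exon windows of CRK22 are unique, and its nearest relative by protein identity is CRK13. Part of the CRK22 reads could therefore stem from a relative, which was not tested.

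CRK27 (AT4G21230), with 1 DUF26 motif, was the only tested member called at neither time. Its level lay between 0.09998 and 0.626 CPM in 35S:RPS4 and between 0.0658 and 0.658 CPM in Col-0 at 4 h, and the line effect was 0.24 ± 0.95. At 8 h CRK27 had 0.403, 0.479 and 0.532 CPM in 35S:RPS4, against 0, 0.296 and 0.260 CPM in Col-0. Every 35S:RPS4 library then lay above every Col-0 library, but on 41 counts in 35S:RPS4 and 17 in Col-0 the line effect of 1.33 ± 0.99 did not pass the test (adjusted p = 0.228).

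Rises were spread through the array and outside it. At 4 h, 17 of the 20 array genes were higher and 1 was lower, and 14 of the 19 tested genes elsewhere were higher and 2 lower, beside 16.6% higher and 12.4% lower of all genes. At 8 h the counts were 16 higher and 2 lower in the array and 13 higher and 3 lower elsewhere, beside 26.6% and 30.1% of all genes. The median log2 fold change was 4.04 in the array and 4.60 elsewhere at 4 h, and 3.95 and 4.06 at 8 h. These counts describe the members and were not tested against each other.

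**Figure D3:**
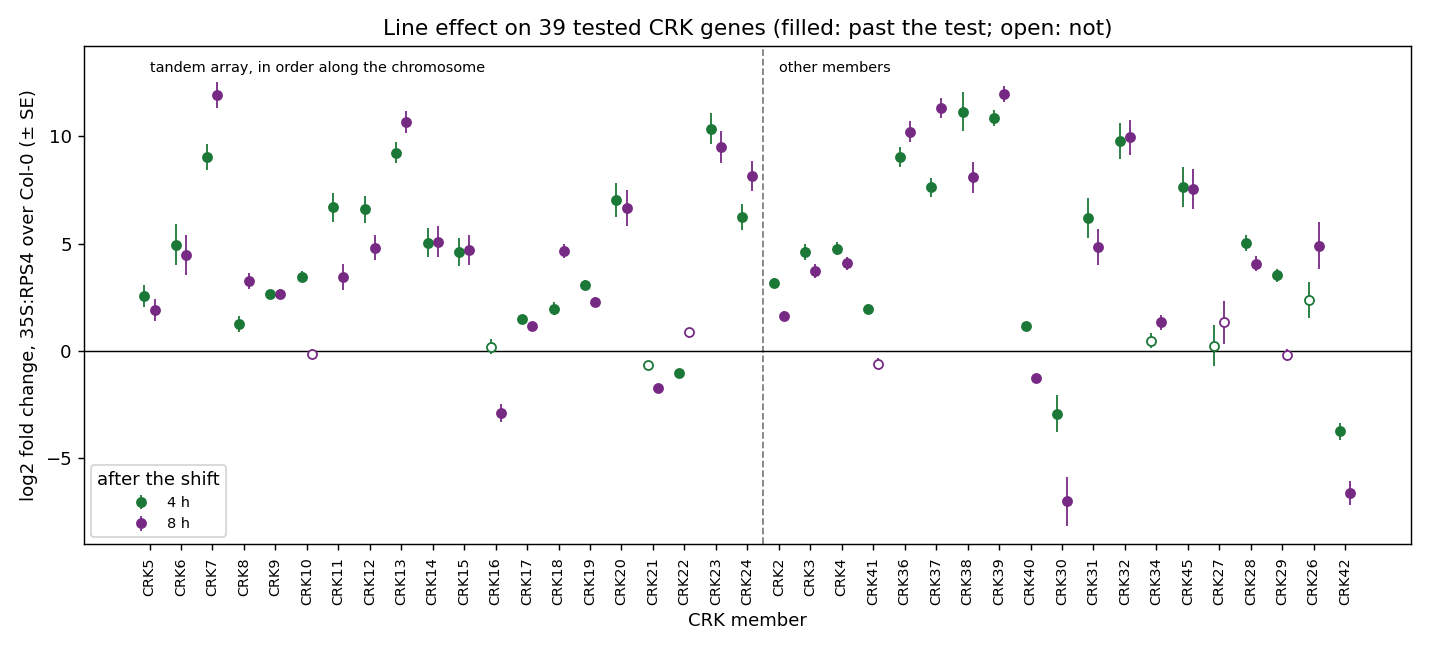
Log2 fold change of 35S:RPS4 over Col-0 (± SE) of the 39 tested CRK genes at 4 h (green) and 8 h (purple), with the array from CRK5 to CRK24 in chromosomal order left of the dashed line and the other members right of it. Filled points passed the test. CRK13 (9.22 at 4 h) and CRK16 (0.20 at 4 h) lie in the same array, with CRK14 (5.05) and CRK15 (4.61) between them.

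Close relatives could differ widely. CRK39 and CRK40 align with identical residues over 79.7% of the length of the shorter protein. Yet the line effect at 8 h was 11.97 for CRK39 and -1.26 for CRK40. CRK28 and CRK29 (81.2% identical) had 5.05 and 3.51 at 4 h and 4.06 and -0.20 at 8 h. CRK31 and CRK32 (81.7%) were both higher at both times, CRK31 (AT4G11470) by 6.19 ± 0.94 and 4.83 ± 0.84. CRK6 and CRK8 (84.6%) were both higher as well, CRK8 (AT4G23160) by 1.27 ± 0.37 at 4 h and 3.26 ± 0.39 at 8 h. The 4 h call of CRK8 was lost on leaving out any of the 6 libraries but 35S:RPS4 4 h replicate 2 (adjusted p up to 0.0574). Differences between relatives were not tested.

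Calls and the TTGAC count were set side by side. TTGAC was present before 24 of the 31 members higher at 4 h, 1 of the 3 lower and 4 of the 5 not called, and before 23 of the 29 higher, 2 of the 5 lower and 4 of the 5 not called at 8 h. CRK13, second in level per kilobase in 35S:RPS4 at 8 h, has no match in the window read.

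In Col-0 the members called after the shift were about as frequent as among all genes, or fewer. At 4 h against 0 h, 2 of 39 members (5.13%) were higher and 0 lower, beside 3.87% and 4.79% of all genes. An unadjusted p under 0.05 was found for 13 of 39 members and 7862 of 20023 genes, and DESeq2 and limma voom also gave 0 lower members. The 2 were CRK19 (1.27 ± 0.23) and CRK30. At 8 h against 0 h, 4 members (10.3%) were higher (CRK2, CRK3, CRK19 and CRK30) and 3 (7.69%) lower (CRK17, CRK18 and CRK42), beside 10.5% and 11.8% of all genes. Without Col-0 0 h replicate 2 the 8 h count was 6 higher, and without Col-0 8 h replicate 3 it was 6 lower. CRK19 was 1.91 ± 0.23 higher and CRK3 1.79 ± 0.33 higher at 8 h.

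The interaction term asked whether the shift acted differently in the 2 lines. It was positive and past the threshold for 26 members and negative for 1 at 4 h (beside 15.0% and 10.2% of all genes), and positive for 25 and negative for 5 at 8 h (beside 24.9% and 27.3%). The negative member at 4 h was CRK42 (-3.64 ± 0.51), and the count was 2 without 35S:RPS4 0 h replicate 3, 35S:RPS4 4 h replicate 2 or Col-0 0 h replicate 3. With library totals alone, the split over all genes at 4 h was 2495 positive and 3312 negative (3007 and 2049 with TMM), and at 8 h 4436 and 5882 (4986 and 5464 with TMM). At 8 h the negative ones were CRK30, CRK42 (-6.49 ± 0.67), CRK16 (-3.17 ± 0.56), CRK21 (-1.92 ± 0.22) and CRK40 (-1.55 ± 0.24). This comparison uses the same libraries as the line effects and is not independent of them.

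Genes that work beside the CRKs were counted from lists. The plasmodesmata-located proteins (PDLPs) carry the DUF26 domain without a kinase, and 7 of 8 were tested (PDLP4 had 0 counts). At 4 h 2 were higher and 3 lower in 35S:RPS4, beside 16.6% and 12.4% of all genes. At 8 h 1 (14.3%) was higher and 2 (28.6%) lower, no more often than the 26.6% and 30.1% of all genes. PDLP5 (AT1G70690), which closes plasmodesmata in SA responses, had 20.1, 18.3 and 19.5 CPM in 35S:RPS4 at 4 h, against 0.312, 0.461 and 0.616 CPM in Col-0, and 201, 186 and 199 CPM in 35S:RPS4 at 8 h, against 0.388, 0.526 and 0.553 CPM in Col-0. Its line effect of 5.36 ± 0.42 at 4 h and 8.63 ± 0.45 at 8 h passed the test at both times. PDLP3 (AT2G33330) went the other way, with 8.25, 5.94 and 4.08 CPM in 35S:RPS4 at 4 h, against 31.7, 28.1 and 30.0 CPM in Col-0, and 0.0448, 0.0282 and 0 CPM in 35S:RPS4 at 8 h, against 55.4, 50.4 and 41.8 CPM in Col-0 (-2.30 ± 0.29 and -10.79 ± 0.54, the 8 h value resting on values under 3 counts in 35S:RPS4). PDLP2 was also lower in 35S:RPS4 at both times (-1.23 ± 0.22 and -5.07 ± 0.30). In Col-0 PDLP3 was higher than at 0 h at both times (1.15 ± 0.28 and 1.87 ± 0.28). The 4 h calls of PDLP1 (lower) and PDLP7 (higher) were each lost in 5 of the 6 fits that left out 1 library, and held without Col-0 4 h replicate 3 for PDLP1 and without 35S:RPS4 4 h replicate 2 for PDLP7.

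Of 6 receptors, partners and oxidases that work with CRKs, 6 were higher in 35S:RPS4 at 4 h (beside 16.6% of all genes) and 4 at 8 h (beside 26.6%). The co-receptor BAK1 was higher by 3.86 ± 0.17 at 4 h and 3.20 ± 0.16 at 8 h, and its paralogue BKK1 by 4.93 ± 0.33 and 4.60 ± 0.33. BIK1, the kinase phosphorylated by CRK36, was higher by 5.25 ± 0.29 and 2.42 ± 0.25, and the oxidase RBOHD by 4.80 ± 0.19 and 3.53 ± 0.18. RBOHF (1.45 ± 0.22 at 4 h, 0.09 ± 0.23 at 8 h) and the flagellin receptor FLS2 (1.27 ± 0.36 at 4 h, 0.28 ± 0.36 at 8 h) passed the test at 4 h only, and the FLS2 call was lost on leaving out any of the 6 libraries but 35S:RPS4 4 h replicate 2. FLS2 had 48.9, 33.1 and 41.2 CPM in 35S:RPS4 at 4 h, against 18.1, 15.5 and 17.5 CPM in Col-0, and 31.2, 31.0 and 28.4 CPM in 35S:RPS4 at 8 h, against 32.5, 18.2 and 23.8 CPM in Col-0. In Col-0 FLS2 was higher than at 0 h at both times, by 1.79 ± 0.38 and 2.33 ± 0.38 on the log2 scale. RBOHD was lower in Col-0 than at 0 h at both times (-1.33 ± 0.16 and -1.86 ± 0.17). BKK1 (-1.36 ± 0.29) and RBOHF (-1.22 ± 0.23) were lower in Col-0 at 8 h, and BAK1 and BIK1 were called at neither time. The line effects of these genes hold such changes in Col-0. Mean RBOHD levels in 35S:RPS4 were 40.8, 577 and 167 CPM at 0 h, 4 h and 8 h.

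**Figure D4:**
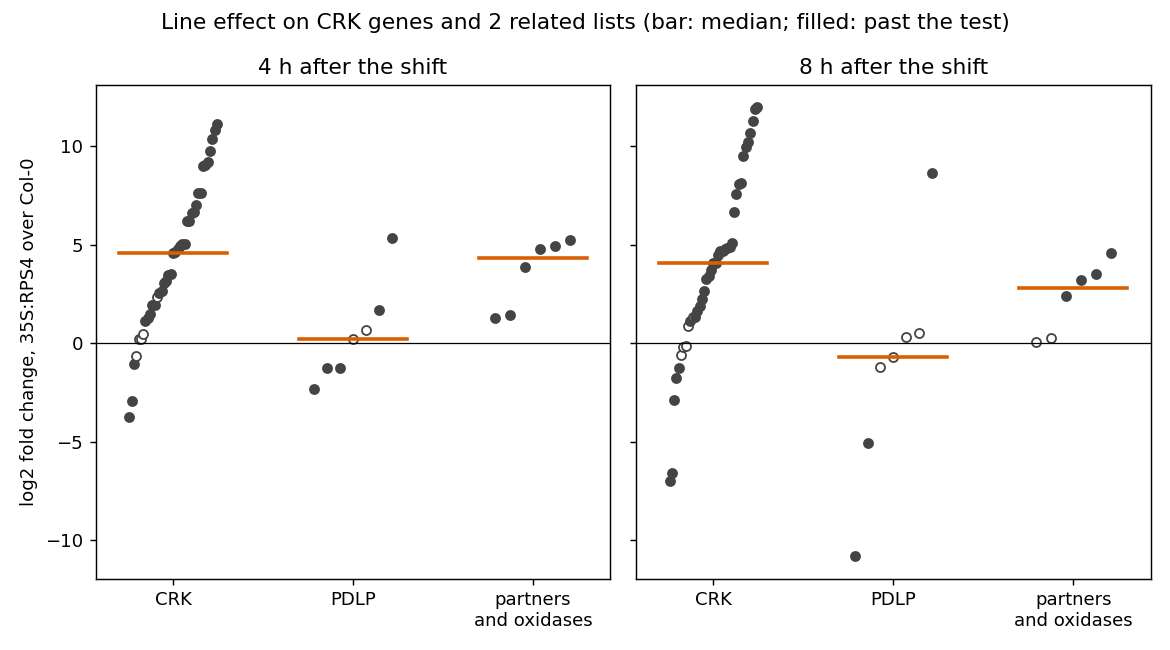
Log2 fold change of 35S:RPS4 over Col-0 at 4 h (left panel) and 8 h (right panel) for the tested CRK genes, PDLP genes, and 6 partners and oxidases; each point is a gene, filled where it passed the test, and bars are list medians. The CRK median is 4.60 at 4 h and 4.06 at 8 h, the PDLP median 0.20 and -0.71, and the partner median 4.33 and 2.81.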

How the data were processed

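Leaf RNA of 18 libraries was sequenced in pairs from oligo-dT selected mRNA. The deposited counts are raw whole-number counts of reads per gene, made by the authors with TopHat2 2.0.10 on TAIR10 and HTSeq after FastQC 0.11.2, per the submitters' processing notes and the study's methods; the HTSeq version and strand setting are not given in the sources used here. Reads of near-identical genes can then be dropped or split, and reads of overlapping antisense genes may not be told apart. Neither the fits nor the library sizes used the 5 summary lines that name no gene, and reads in no annotated feature were 48.5% to 49.2% of the sum of genes and summary lines.

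Genes with low counts were removed with filterByExpr (20023 of 32678 kept), libraries were scaled by TMM (factors 0.797 to 1.15, and 0.797 to 0.838 in 35S:RPS4 at 4 h) and edgeR 4.0.16 (R 4.3.3) fitted 1 mean per group over all 18 libraries, with quasi-likelihood tests. The SE of a log2 fold change is its absolute value divided by the square root of the F statistic of that test. Where a group has few counts, this SE can be smaller than counting error alone, as for PDLP3 at 8 h and CRK39 at 4 h and 8 h. An adjusted p under 0.01 and an absolute log2 fold change over 1 counted as called, the limits used in the study. The tests were checked on simulated data: for the line effect at 4 h over 20023 genes, 97 of 100 genes changed 3-fold and 100 of 100 changed 8-fold were called. For the 8 h minus 4 h difference in line effect 51 of 100 changed 3-fold were called, and for the line by shift interaction at 4 h 48 of 100. The simulated data had the same spread for every gene, and genes were changed only in 35S:RPS4 at 4 h. Genes with low counts were not changed, and far fewer genes were changed than were called at 4 h in the real data. These rates therefore do not cover members near the floor. Intervals on ratios with 1 to 3 counts are exact at 95% and, like the floor of 3 counts, cover counting error only. Sequences and gene models came from RefSeq's TAIR10.1 annotation (promoter: 300 bases before the gene start); coordinates are on that assembly, whose nuclear chromosomes are those of TAIR10. All 42 members matched it. CRK1 was left out of the protein features since its reading frame is broken there.

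The members, the PDLP, partner and marker lists and the motifs were chosen with earlier results of these data known. Genes described in every library were the 8 with the largest called change at 4 h and at 8 h, the largest falls, members of described role, the most abundant member called at neither time (1 existed) and the 5 largest differences between 8 h and 4 h; values of other members were added after they were seen. Alternatives were median-of-ratios scaling, library totals, other filters, DESeq2 1.42.0, limma 3.58.1 (voom), fits of only the compared groups, a replicate block and leaving out each library; those for the PDLP and partner genes were added after seeing the data. Python 3 scripts drew the figures.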

Additional observations from a re-analysis of the deposited data

Results flagged for a closer look

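Several results differed between the lines or between 4 h and 8 h by a test of the difference itself (edgeR, adjusted over all genes). The shift acted differently in 35S:RPS4 and Col-0 for 26 CRK genes in the positive and 1 in the negative direction at 4 h (beside 15.0% and 10.2% of all genes), and for 25 and 5 at 8 h (beside 24.9% and 27.3%). The line effect differed between 8 h and 4 h for 4 of 39 CRK genes in the positive (10.3%) and 9 in the negative direction (23.1%), close to the 13.3% and 22.9% of all genes. On the log2 scale the positive differences were 3.69 for CRK37, 2.69 for CRK18, 1.99 for CRK8 and 1.91 for CRK22. The negative ones were -3.72 for CRK29, -3.60 for CRK10, -3.25 for CRK11, -3.09 for CRK16, -2.85 for CRK42, -2.54 for CRK41, -2.41 for CRK40, -1.53 for CRK2 and -1.09 for CRK21. The CRK42 difference rests on 9 counts in 35S:RPS4 at 8 h and was lost without 35S:RPS4 4 h replicate 2, 35S:RPS4 8 h replicate 2 or 35S:RPS4 8 h replicate 3, and with limma voom.

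Among the related genes the difference passed for PDLP5 (3.27), PDLP1 (1.58), PDLP3 (-8.49), PDLP2 (-3.84), PDLP7 (-2.39), BIK1 (-2.83), RBOHF (-1.36) and RBOHD (-1.26). The PDLP1 difference was lost in 9 and the PDLP7 difference in 8 of the 12 fits that left out 1 library. Groups of 3 libraries were too small for a test of single outlying samples.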

How the results depend on the processing

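The direction held for most CRK values: of 2604 log2 fold changes recomputed for members, 2534 kept direction and side of the threshold, 62 lost the call, 1 gained it and 7 changed sign.

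With library totals alone the 4 h interaction count of lower members was 3, and it was 2 with DESeq2 and 2 with limma voom, against 1; CRK27 and CRK16, not called at 4 h, were at -0.18 and -0.23. Leaving out 1 library at a time gave 1 to 2 for that interaction count, 1 to 2 for members lower at 4 h, 2 to 4 for members with a larger line effect at 8 h, and 3 to 6 for members lower in Col-0 at 8 h against 0 h. Leaving out 1 library also moved values that passed no test across 0: CRK27 at 4 h between -0.25 and 0.99, CRK16 at 4 h between -0.051 and 0.40, CRK29 at 8 h between -0.37 and 0.065, and CRK10 at 8 h between -0.31 and 0.098.

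Replicate numbers did not pair the libraries: deviations of same-numbered libraries correlated between -0.223 and 0.274, and only 9 of 45 pairs were over 0.1. With the replicate block, the 4 h call of CRK8 was lost (log2 fold change 1.24, adjusted p = 0.0114), as were the 4 h value (1.67) and the 8 h minus 4 h difference (-2.32) of PDLP7, and every count stayed within 1.5 times. Without the filter on low counts the 4 h median of the members was 3.46. DESeq2 gave no adjusted p for CRK6 and CRK45. Members under 3 counts in a group, such as CRK32, CRK38, CRK23 and CRK30, are limited by depth.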
